A study of Mus musculus with 8 samples.

Results

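The transcripts described here are those of 44 cell cycle and DNA replication genes in the P3 cortex of mice with a conditional deletion of BAF155 and BAF170, scaffolding subunits of the chromatin remodeling BAF complex. The genes were taken from a list of symbols, by a rule that uses no measured value, as 12 regulators of the G1/S transition, 10 genes of DNA replication and nucleotide supply, and 22 genes of G2/M and mitosis. The list itself was chosen with earlier results of these data known. All 44 were found among the 48709 genes listed in the files, and all 44 were among the 16525 genes that passed the filter on low counts. RNA sequencing covered 4 dcKO_hGFAP-Cre and 4 control cortices at postnatal day 3, on a C57BL/6J background. The mutants carried BAF155 fl/fl and BAF170 fl/fl alleles with hGFAP-Cre, which recombines in radial glia of the dorsal telencephalon. Controls carried 1 floxed and 1 wild-type allele of each gene with the same hGFAP-Cre in the study's methods, while the sample titles call them WT. The mutants died soon after birth. Each library was labelled as its own sample, and the methods speak of 4 control and 4 mutant tissues. P-values measure the spread between these libraries.

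The cell cycle is driven by cyclin-dependent kinases that are switched on by short-lived cyclins. D-type cyclins with Cdk4 and Cdk6, followed by E-type cyclins with Cdk2, release E2F transcription factors from the retinoblastoma proteins and so open the G1/S transition, at which genes of DNA replication are transcribed. Genes for entry into and passage through mitosis are transcribed later, under a complex that binds a short promoter element called CHR, often beside CCAAT boxes. In the cortex around birth, the cells that still divide include late radial glia, intermediate progenitors, precursors of astrocytes and oligodendrocytes, microglia and endothelium, and bulk RNA pools them all.

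In their sequence, the promoter windows of the G2/M genes were set apart from those of the G1/S and replication genes by the CHR element. A promoter window of 250 bases before to 50 bases after the start site (RefSeq, build GRCm38.p6) was at hand for 37 of the 44 genes, and 6 windows are printed because they belong to the 2 genes of each phase with the smallest p among those with a window. Capitals mark matches, on either strand, to an E2F word (TTCCCGC or TTGGCGC), a CHR word (TTTGAA or TTCGAA) or CCAAT. The second E2F word, read on the opposite strand, can overlap a CCAAT box. Of the printed windows, those of E2f1 (gene chr2:154559407-154569892) and Mcm7 (gene chr5:138164583-138172422) lie wholly inside the annotated gene, downstream of its 5' end. They do not cover the sequence before that 5' end, and both are counted in the shares below. The windows of E2f1 (chr2:154569377-154569676, minus strand) and Ccne1 (chr7:38107441-38107740, minus strand), from the G1/S group, held none of these words:
E2f1: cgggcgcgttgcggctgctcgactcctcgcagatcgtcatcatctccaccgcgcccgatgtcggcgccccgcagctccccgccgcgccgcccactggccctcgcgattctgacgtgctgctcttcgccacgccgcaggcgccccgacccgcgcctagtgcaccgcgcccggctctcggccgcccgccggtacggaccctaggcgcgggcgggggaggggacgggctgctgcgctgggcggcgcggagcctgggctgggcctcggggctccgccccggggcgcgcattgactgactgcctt
Ccne1: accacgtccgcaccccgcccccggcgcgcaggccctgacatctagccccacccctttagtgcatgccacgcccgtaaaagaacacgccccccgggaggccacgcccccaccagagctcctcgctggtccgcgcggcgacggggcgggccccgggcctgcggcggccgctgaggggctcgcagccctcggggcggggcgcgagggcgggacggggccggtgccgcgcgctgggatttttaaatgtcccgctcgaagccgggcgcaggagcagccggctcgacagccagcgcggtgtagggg
The windows of Tyms (chr5:30073576-30073875, minus strand) and Mcm7 (chr5:138171834-138172133, minus strand), from the replication group, differed. Tyms had no match and Mcm7 had 6:
Tyms: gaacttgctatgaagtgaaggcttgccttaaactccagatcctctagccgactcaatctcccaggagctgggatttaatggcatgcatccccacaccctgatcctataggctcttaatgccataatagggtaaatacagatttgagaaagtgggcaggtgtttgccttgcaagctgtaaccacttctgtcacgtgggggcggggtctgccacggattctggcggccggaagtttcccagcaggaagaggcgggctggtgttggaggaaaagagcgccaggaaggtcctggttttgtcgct
Mcm7: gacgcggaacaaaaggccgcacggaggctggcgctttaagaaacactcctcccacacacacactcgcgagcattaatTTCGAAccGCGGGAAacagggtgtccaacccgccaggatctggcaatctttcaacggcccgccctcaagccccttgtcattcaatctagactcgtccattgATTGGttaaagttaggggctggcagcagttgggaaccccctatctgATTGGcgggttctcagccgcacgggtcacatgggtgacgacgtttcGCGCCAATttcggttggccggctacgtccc
The windows of the mitotic genes Ccnb2 (chr9:70421505-70421804, minus strand) and Cenpa (chr5:30666636-30666935, plus strand) each held a CHR word just after the start site, at base 4 in Ccnb2 and base 16 in Cenpa counting from 0 at the start site, and CCAAT boxes upstream of it:
Ccnb2: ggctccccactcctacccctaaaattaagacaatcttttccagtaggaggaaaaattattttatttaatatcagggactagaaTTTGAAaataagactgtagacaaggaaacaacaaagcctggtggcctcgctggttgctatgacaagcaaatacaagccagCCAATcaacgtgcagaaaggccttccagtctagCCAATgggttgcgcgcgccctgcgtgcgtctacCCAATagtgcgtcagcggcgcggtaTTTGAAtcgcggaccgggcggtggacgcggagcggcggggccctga
Cenpa: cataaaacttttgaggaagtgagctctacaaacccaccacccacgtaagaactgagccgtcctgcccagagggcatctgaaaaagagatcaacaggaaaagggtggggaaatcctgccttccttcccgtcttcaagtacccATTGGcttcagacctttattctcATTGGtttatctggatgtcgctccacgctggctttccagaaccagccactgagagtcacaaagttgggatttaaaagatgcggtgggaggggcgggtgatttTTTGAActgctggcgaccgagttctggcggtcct
A CHR word together with CCAAT stood in 15 of 19 windows of G2/M genes (78.9%), in 2 of 9 of replication genes (22.2%), in 1 of 9 of G1/S genes (11.1%) and in 7.52% of all 32851 windows in the table. CCAAT, with or without a CHR word, stood about as often in G2/M windows (17 of 19, 89.5%) as in replication windows (8 of 9, 88.9%). It stood in 4 of 9 G1/S windows (44.4%) and in 37.4% of all windows. An E2F word stood in 5 of 9 windows of replication genes (55.6%), 4 of 9 of G1/S genes (44.4%), 3 of 19 of G2/M genes (15.8%) and 6.81% of all windows. Such a match describes the letters only, and a window without one says nothing about binding.

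**Figure D1:**
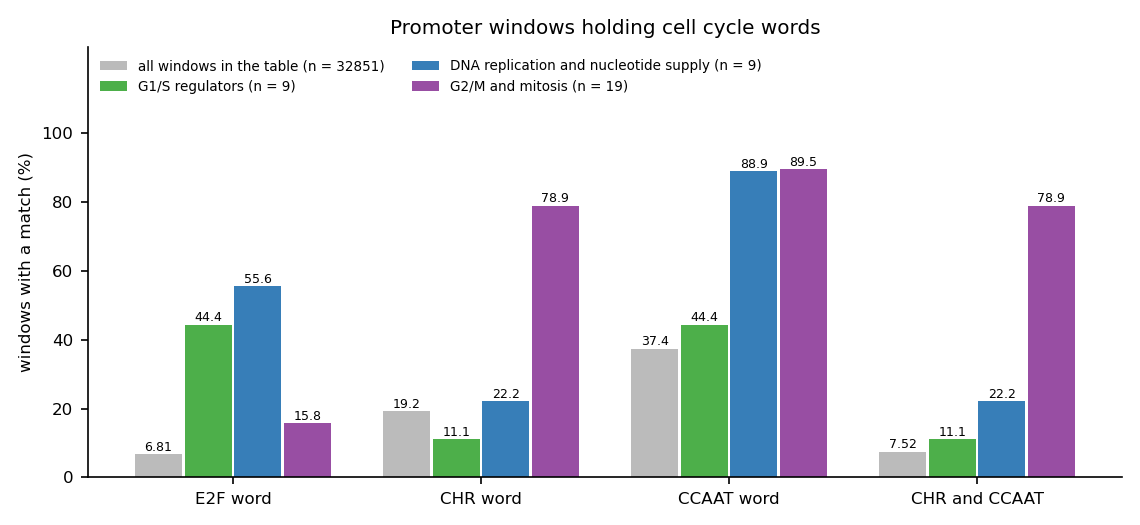
Share of 300-base promoter windows, in percent, that hold an E2F word, a CHR word, CCAAT, or CHR and CCAAT together, for all windows of the table (grey) and for the G1/S, replication and G2/M genes; n is the number of windows. CHR with CCAAT stood in 78.9% of G2/M windows against 7.52% of all windows.

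Both deleted genes were lower in every mutant library. Smarcc1, which encodes BAF155, measured 144, 162, 170 and 160 CPM (counts per 1e6 counts of the library, scaled by the TMM method) in control replicates 1 to 4 and 79.4, 73.6, 86.9 and 84.7 CPM in dcKO_hGFAP-Cre replicates 1 to 4, a log2 fold change of -0.97 ± 0.08 (SE, adjusted p = 5.44e-06). Smarcc2, which encodes BAF170, measured 500, 472, 489 and 469 CPM in control and 291, 266, 256 and 319 CPM in mutant libraries, a log2 fold change of -0.77 ± 0.08 (adjusted p = 2.28e-05). Library totals ran from 21126713 to 31805395 counts in control and from 22002784 to 32110285 in mutant libraries. The mitochondrial share of the counts was 2.06 to 3.23% in control and 3.57 to 5.47% in mutant libraries. Choroid plexus transcripts (8 genes, none at 0) summed to 17.9 to 27.2 CPM in control and 15.2 to 1200 CPM in mutant libraries, with the high values in dcKO_hGFAP-Cre replicates 1 and 2. Replicate 3 of the mutants stood apart in astroglial transcripts, with 273 CPM of Gfap, 245 of Aldoc and 53 of Aqp4, where the other mutants had 24.2 to 32.2, 33.2 to 43.5 and 9.49 to 9.92 CPM. Control libraries had 79.3 to 89.5 CPM of Gfap, 164 to 215 of Aldoc and 38.8 to 63.7 of Aqp4. Both groups shared their sequencing lanes by number: lane 5 held replicates 1 and 2, lane 6 held replicate 3, and lane 7 held replicate 4.

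At P3, the cell cycle genes moved little. Of the 44, 11 were higher and 2 lower in dcKO_hGFAP-Cre cortex by the quasi-likelihood test of edgeR at an adjusted p under 0.05, which is 29.5% of them, against 37.5% of all genes tested. The higher genes were 25.0% of the 44 against a background of 18.6%, and the lower genes 4.55% against 18.9%. The median log2 fold change was 0.12 for the 44 genes and 0.02 for all genes, and the median of its absolute value was 0.20 and 0.29. No member changed by as much as 2-fold, the fitted values running from -0.49 (E2f7) to 0.71 (Ccnb2). In 13 of the 44 (29.5%) all mutant libraries lay above all controls, against 16.7% of all genes. In 2 (4.55%) all lay below, against 17.7% of all genes. Together these were 34.1%, near the 34.4% of all genes, but the split by direction was not that of all genes. With 4 libraries against 4, the smallest p that an exact two-sided permutation test can give is 0.0286.

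The counts of members called higher and lower depended on the scaling, though higher members outnumbered lower ones with each scaling used. TMM scaling assumes that most genes do not change. With library totals alone, the all-gene median of the log2 fold change moved from 0.02 to 0.15, and 19 members were higher and 0 lower. All 16525 genes tested then split into 4584 higher and 2102 lower, against 3074 and 3128 with TMM. With DESeq2 size factors, 12 members were higher and 3 lower, beside 3043 higher and 3180 lower among all genes. Without dcKO_hGFAP-Cre replicates 1 and 2, the libraries with the high choroid plexus transcripts, 4 of the 44 members were called higher (Ccnd1, Tyms, Ccnb2 and Cenpa) and 0 lower. Of the 17229 genes tested in that fit, 1388 were higher and 1581 lower. That is 2969 called in all, against 6202 of 16525 with all libraries. The fit has fewer mutant libraries, and the part of this in the lost calls was not tested. The 44 genes kept a median log2 fold change of 0.14 in that comparison.

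**Figure D2:**
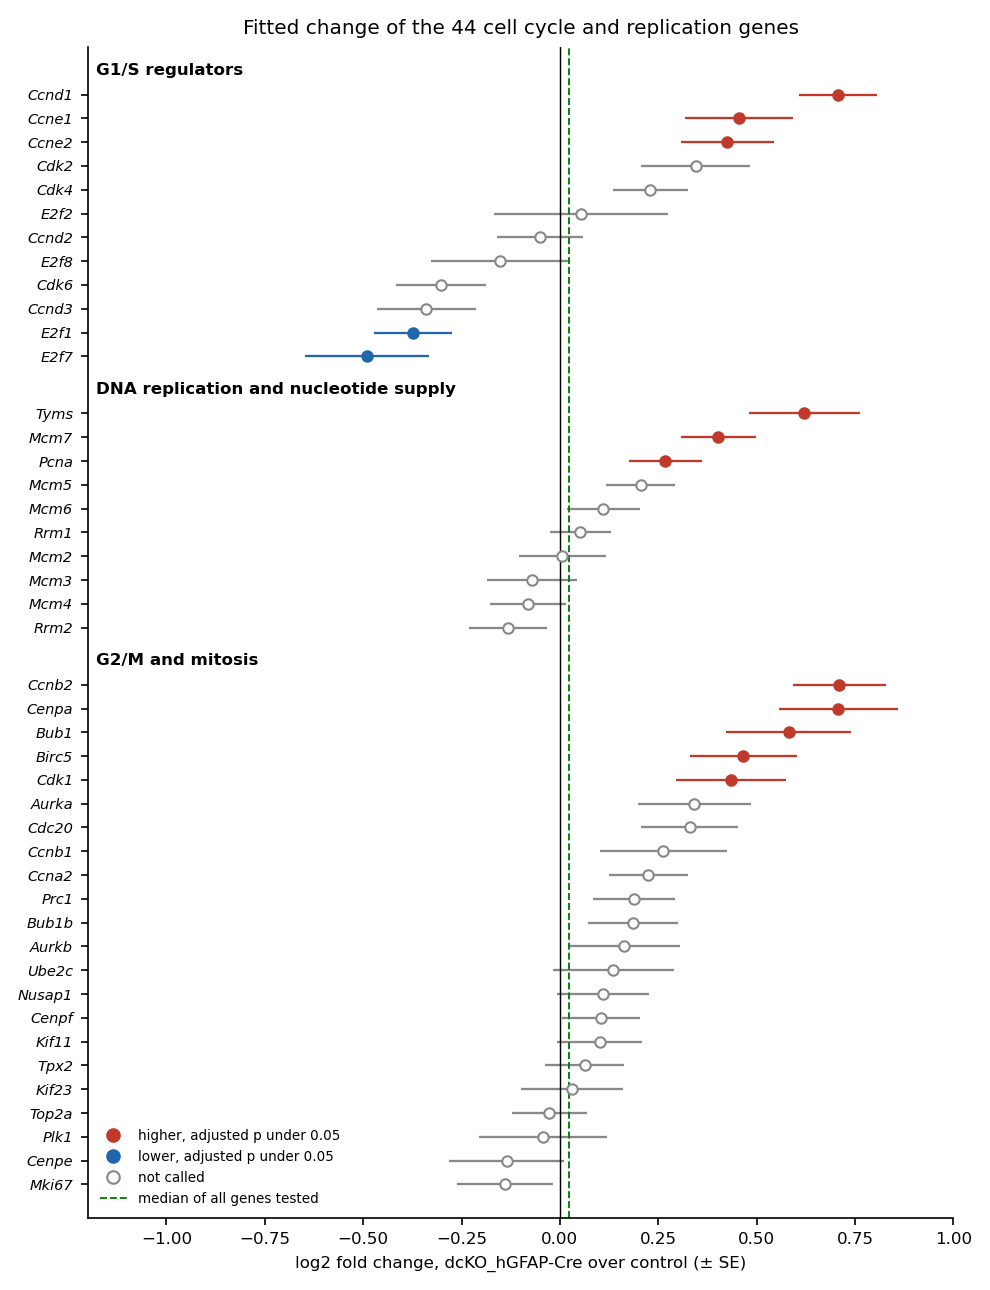
Fitted log2 fold change (dcKO_hGFAP-Cre over control, x axis) with its SE for each of the 44 genes, by phase and ordered by size; filled points passed an adjusted p under 0.05 and the dashed line is the median of all genes tested. Values run from -0.49 for E2f7 to 0.71 for Ccnb2, and both of the genes called lower are E2F factors of the G1/S group.

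The G1/S regulators went in both directions. Of 12, 3 rose (Ccnd1, Ccne1 and Ccne2) and 2 fell (E2f1 and E2f7), with 6 positive and 6 negative fold changes and a median log2 fold change of 0.00. The called genes were 41.7% of the group, near the 37.5% of all genes tested. By direction 25% were higher and 16.7% lower, against 18.6% and 18.9% of all genes. The median absolute log2 fold change in this group was 0.34, above the 0.29 of all genes. The cyclins that rose and the E2F factors that fell make up all of the called genes, and of the 4 kinases Cdk1, Cdk2, Cdk4 and Cdk6 only Cdk1, counted with the mitotic genes, passed the test.

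Ccnd1 (chr7:144929931-144939925), the D-type cyclin that mitogens induce, had the smallest p of the 44. It measured 27.5, 33.2, 27.7 and 29.2 CPM in control replicates 1 to 4 and 50.1, 46.4, 42 and 53.2 CPM in dcKO_hGFAP-Cre replicates 1 to 4. The groups did not overlap. The mean rose from 29.4 ± 2.65 to 47.9 ± 4.81 CPM (SD, n = 4 each), 1.63-fold, with a log2 fold change of 0.71 ± 0.10 and an adjusted p of 0.00021. Over 1100 bases its exons overlap those of LTO1 on the opposite strand in the annotation, and the strand setting of the counting is not known. Reads of the 2 genes may therefore be shared.

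Ccnd2 (chr6:127125162-127152193), the D-type cyclin of cycling neural progenitors, measured 214, 227, 210 and 194 CPM in control and 178, 187, 256 and 193 CPM in mutant libraries. Replicate 3 of the mutants was the highest of all 8 libraries, and the other mutants lay below every control. The log2 fold change of -0.05 ± 0.11 did not pass the test (adjusted p = 0.743). Ccnd3 (chr17:47505051-47599691), the third D-type cyclin, measured 17.3, 18.5, 20.4 and 22.8 CPM in control and 14.6, 15.3, 18.7 and 13.9 CPM in mutant libraries. With -0.34 ± 0.13 on the log2 scale its adjusted p was 0.0501, just outside the threshold. It was 0.0121 without dcKO_hGFAP-Cre replicate 3 and 0.0298 without control replicate 1. Leaving out any other single library gave 0.0629 to 0.143. Of 9 other tests, scalings, filters and blocks, 5 called Ccnd3 lower. These were DESeq2 (adjusted p = 0.027), limma-voom (0.0448), DESeq2 size factors (0.0451), no filter on low counts (0.0492) and the sequencing lane as a block (0.0388). With library totals the adjusted p was 0.171 (log2 fold change -0.22).

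Per kilobase of exon, Ccnd2 was the most abundant D-type cyclin in both groups, at 22.4 CPM per kb in control and 21.7 in mutant cortex. Ccnd1 followed at 6.24 and 10.2, and Ccnd3 at 2.25 and 1.78 CPM per kb. Ccnd1 made up 20.2 ± 1.11% of this summed level in control (range 19.1 to 21.2%) and 30.6 ± 5.02% in mutant libraries (23.3 to 34%). The lowest mutant share, 23.3%, belonged to replicate 3, whose Ccnd2 was high. This share uses the same counts as the test of Ccnd1 and is given as a description.

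**Figure D3:**
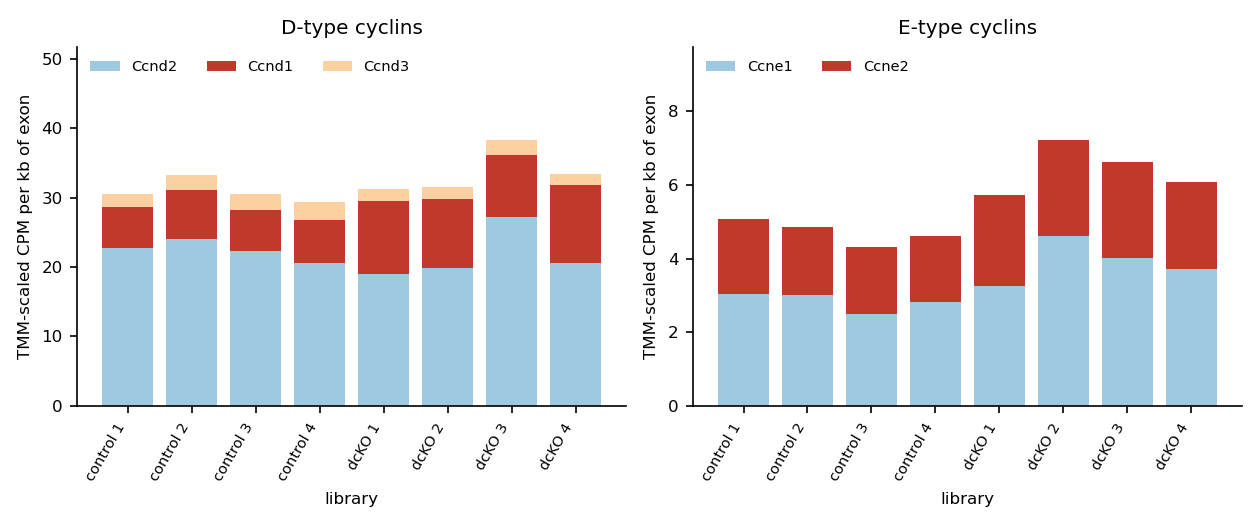
TMM-scaled CPM per kb of exon of the D-type cyclins (left) and E-type cyclins (right) in each library, stacked, with dcKO standing for dcKO_hGFAP-Cre. The Ccnd1 share of the D-type bars was 20.2 ± 1.11% in control and 30.6 ± 5.02% in mutant libraries, whereas Ccne1 kept about the same share of the E-type bars, 60.3 and 60.6%.

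Ccne1 (chr7:38097984-38107534), an activator of Cdk2 at the start of S phase, measured 8.10, 8.03, 6.67 and 7.50 CPM in control and 8.64, 12.2, 10.7 and 9.87 CPM in mutant libraries. All mutants lay above all controls, though mutant replicate 1 only narrowly. The log2 fold change was 0.45 ± 0.14 (adjusted p = 0.0206). The call was lost when control replicate 3 (adjusted p = 0.0719), control replicate 4 (0.0544) or dcKO_hGFAP-Cre replicate 2 (0.0766) was left out. Ccne2 (chr4:11191351-11204779), its close relative, measured 7.13, 6.41, 6.31 and 6.32 CPM in control and 8.64, 9.15, 9.04 and 8.30 CPM in mutant libraries. The groups were tight and apart. Its log2 fold change was 0.43 ± 0.12 (adjusted p = 0.0141), and the call held with each replicate left out, the highest adjusted p being 0.0466. Over 609 bases the exons of Ccne2 overlap those of Ints8 on the opposite strand. Both E-type cyclins thus rose, and Ccne1 made up 60.3 ± 1.72% of their per-kilobase level in control and 60.6 ± 2.87% in mutant libraries.

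E2f1 (chr2:154559407-154569892), an activating E2F factor, measured 20.8, 19, 20.6 and 21.9 CPM in control and 16.3, 14.6, 17.3 and 15.3 CPM in mutant libraries. Every mutant lay below every control. It fell by 0.37 ± 0.10 on the log2 scale (adjusted p = 0.0113), a call that held with each replicate left out but not with library totals (log2 fold change -0.25, adjusted p = 0.0599). E2f7, a repressive E2F factor that acts late in the cycle, was also below control in all mutants, with 4.68 to 5.84 CPM in control and 3.14 to 4.40 CPM in mutant libraries. Its log2 fold change of -0.49 ± 0.16 had an adjusted p of 0.0269. This call held without control replicate 3 and without dcKO_hGFAP-Cre replicate 3, and was lost when any other single library was left out (adjusted p from 0.0514 to 0.0729), with library totals (0.0824) and with no filter on low counts (0.0532). Its exons overlap those of 1700020G17Rik, on the opposite strand, over 86 bases.

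The other 2 E2F members did not pass the test. E2f8, a repressor related to E2f7, stood at -0.15 ± 0.18 on the log2 scale (adjusted p = 0.527), and E2f2, an activator, 0.05 ± 0.22 (adjusted p = 0.869). Per kilobase of exon in control, E2f7, E2f2 and E2f8 were the lowest of the 44 genes, at 0.585, 0.824 and 0.839 CPM per kb, while E2f1 lay at 6.52. The G1 kinases Cdk4 and Cdk6, partners of the D-type cyclins, differed in sign, with log2 fold changes of 0.23 ± 0.10 (adjusted p = 0.0752) and -0.30 ± 0.11 (adjusted p = 0.0538). Cdk2, the partner of the E-type cyclins, had 0.35 ± 0.14 (adjusted p = 0.0675). Cdk4 and Cdk2 passed without dcKO_hGFAP-Cre replicate 4 (adjusted p = 0.0124 and 0.0202), and Cdk6 passed without control replicate 4 (0.0328).

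Among the 10 replication genes 3 rose (Tyms, Mcm7 and Pcna) and 0 fell, with a median log2 fold change of 0.08. The higher genes were 30% of the group, against 18.6% of all genes tested, and 0% were lower, against 18.9%. In either direction 30% were called, below the 37.5% of all genes. DESeq2 gave the same 3 and 0, and limma-voom 2 and 0. Tyms, thymidylate synthase, which makes the thymidine nucleotide for DNA, changed most. It measured 6.31, 6.01, 5.84 and 7.01 CPM in control and 9.32, 10.1, 11.4 and 7.94 CPM in mutant libraries. The groups did not overlap, and mutant replicate 4 was the nearest to control. Its log2 fold change was 0.62 ± 0.14 (1.54-fold, adjusted p = 0.00472), and the call held with each replicate left out.

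The 6 subunits of the MCM2-7 helicase, which form 1 complex and unwind DNA at the replication fork, did not all pass the test. Mcm7 (chr5:138164583-138172422) measured 37.4, 30.2, 36.3 and 37.6 CPM in control and 45.9, 51.9, 44.3 and 45.1 CPM in mutant libraries. The mutants were all above the controls, with a log2 fold change of 0.40 ± 0.10 (adjusted p = 0.00584). The exons of Mcm7 overlap those of Cops6, Ap4m1 and 2 microRNA genes over 557 bases. Mcm2 measured 27.4, 26.5, 23.7 and 21.7 CPM in control and 23.4, 26.9, 27.4 and 21.9 CPM in mutant libraries, which overlapped throughout. Its log2 fold change was 0.01 ± 0.11 (adjusted p = 0.971).

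Mcm5, whose mutant values of 28.1 to 31.7 CPM all lay above the control values of 24.4 to 26.9 CPM, did not pass over all genes (log2 fold change 0.21 ± 0.09, adjusted p = 0.0832). It passed without dcKO_hGFAP-Cre replicate 4 (adjusted p = 0.0487). Mcm6, Mcm3 and Mcm4 had 0.11, -0.07 and -0.08 on the log2 scale, none of them called. Per kilobase of exon in control, the 6 subunits lay between 3.57 CPM per kb (Mcm2) and 7.99 (Mcm7). In the mutant cortex they lay between 3.58 (Mcm2) and 10.6 CPM per kb (Mcm7).

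Pcna (chr2:132249162-132253314), the sliding clamp of the replicative polymerases, measured 34.6, 32.9, 35.4 and 35.6 CPM in control and 41.3, 43, 46.8 and 35.7 CPM in mutant libraries. Mutant replicate 4 stood at the level of the highest control, and the others stood clear of it. The log2 fold change was 0.27 ± 0.09 (adjusted p = 0.039), the largest adjusted p among the genes called. It held without dcKO_hGFAP-Cre replicate 4 and was lost when any other single library was left out (adjusted p from 0.0642 to 0.1), with limma-voom (0.0529) and with no filter on low counts (0.0694). The 2 subunits of ribonucleotide reductase, which makes deoxynucleotides, had log2 fold changes of 0.05 ± 0.08 (Rrm1, adjusted p = 0.629) and -0.13 ± 0.10 (Rrm2, adjusted p = 0.313). Of the genes for nucleotide supply, Tyms alone was called.

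Of the 22 genes of G2/M and mitosis 5 rose (Ccnb2, Cenpa, Bub1, Birc5 and Cdk1) and 0 fell. The higher genes were 22.7% of the group, against 18.6% of all genes tested, and 0% were lower, against 18.9%. In either direction 22.7% were called, below the 37.5% of all genes. DESeq2 and limma-voom gave the same counts of 5 and 0. The sign was positive in 18 of 22 (median log2 fold change 0.18, median SE 0.13), and in 8652 of the 16525 genes tested. Summed over the 22 genes, control libraries had 271 to 310 CPM and mutant libraries 313 to 353 CPM. In bulk tissue, fewer or more cells of a type and less or more RNA per cell cannot be told apart.

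Ccnb2 (chr9:70407692-70421547), a B-type cyclin that activates Cdk1 at mitosis, measured 6.26, 6.31, 6.71 and 6.87 CPM in control and 10.1, 10.3, 12.1 and 10.3 CPM in mutant libraries. The groups stood well apart, with a log2 fold change of 0.71 ± 0.12 (1.64-fold, adjusted p = 0.000697). Ccnb1 (chr13:100778650-100786570), the other B-type cyclin, measured 3.82, 4.34, 3.75 and 3.85 CPM in control and 4.57, 5.04, 5.53 and 3.77 CPM in mutant libraries. Mutant replicate 4 lay among the controls. Its log2 fold change of 0.26 ± 0.16 was not called (adjusted p = 0.217), and whether the 2 B-type cyclins differ was not tested. Ccna2, the A-type cyclin of S phase and G2, was above control in all mutants, with 16.2 to 19.3 CPM in control and 20.1 to 22.5 CPM in mutant libraries, and was not called (0.22 ± 0.10, adjusted p = 0.0953).

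Cdk1 (chr10:69335146-69352938), the kinase that drives entry into mitosis, measured 14.6, 12.8, 15.2 and 14.2 CPM in control and 18.2, 19.7, 24.2 and 14.9 CPM in mutant libraries. Mutant replicate 4 lay below control replicate 3. The log2 fold change was 0.43 ± 0.14 (adjusted p = 0.0278). The call was lost without control replicate 2 (adjusted p = 0.0823), control replicate 4 (0.0621), dcKO_hGFAP-Cre replicate 2 (0.0618) or dcKO_hGFAP-Cre replicate 3 (0.0707).

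Cenpa (chr5:30666777-30674830), the histone H3 variant that marks centromeres, measured 11.6, 9.07, 9.26 and 10.2 CPM in control and 14.3, 19.2, 19.2 and 12.8 CPM in mutant libraries. No mutant fell into the control range, although the mutants spread widely. It rose by 0.71 ± 0.15 on the log2 scale (1.63-fold, adjusted p = 0.00334). The kinetochore proteins Cenpe and Cenpf, by contrast, were not called, with -0.14 ± 0.15 (adjusted p = 0.49) and 0.10 ± 0.10 (adjusted p = 0.43).

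Bub1 (chr2:127801122-127831865), a kinase of the spindle checkpoint, measured 7.27, 4.88, 4.71 and 4.93 CPM in control and 8.55, 7.63, 7.85 and 8.51 CPM in mutant libraries. Control replicate 1 stood above the other controls and still below every mutant. Bub1 rose by 0.58 ± 0.16 on the log2 scale (adjusted p = 0.0128). Birc5 (chr11:117849251-117855743), which encodes survivin, a subunit of the chromosomal passenger complex, measured 6.17, 6.01, 6.44 and 6.11 CPM in control and 9.88, 8.73, 8.67 and 6.97 CPM in mutant libraries. The controls were tight, and all mutants lay above them. It rose by 0.47 ± 0.14 on the log2 scale (adjusted p = 0.0173), and the call was lost without dcKO_hGFAP-Cre replicate 1 (adjusted p = 0.0611).

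Mki67 and Top2a, both used as proliferation markers, did not pass the test, whereas Pcna, given above, did. Mki67 (chr7:135689784-135716361), which coats mitotic chromosomes and is the antigen of Ki67 staining, measured 44, 40.5, 36.1 and 28.7 CPM in control and 35.4, 30.7, 34.3 and 35 CPM in mutant libraries. The mutants lay inside the control range, and the log2 fold change was -0.14 ± 0.12 (adjusted p = 0.391). Top2a (chr11:98992943-99024189), topoisomerase II alpha, which untangles chromosomes, measured 50.4, 51.5, 49.4 and 41.6 CPM in control and 47.1, 41.7, 51.5 and 48.8 CPM in mutant libraries. These ranges were nearly the same, and the log2 fold change was -0.03 ± 0.10 (adjusted p = 0.847).

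**Figure D4:**
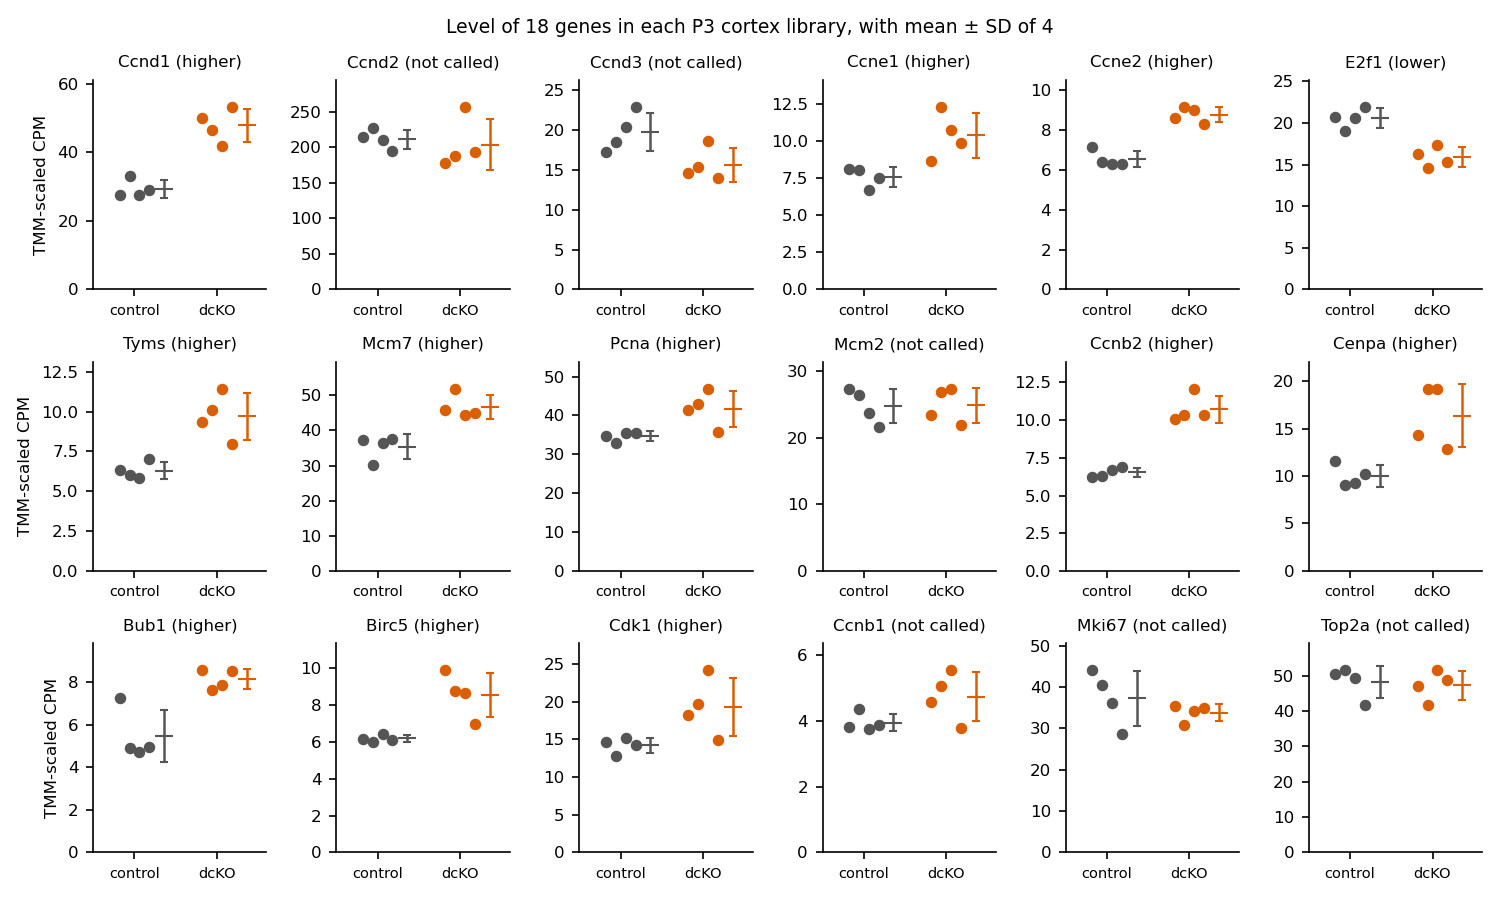
TMM-scaled CPM of 18 of the genes in each library (points in replicate order, y axes from 0), with the mean and SD of 4 at the side of each group; dcKO stands for dcKO_hGFAP-Cre. The mutant points of Ccnd1, Ccnb2 and Ccne2 stand clear of control, those of E2f1 stand below, and those of Mki67, Top2a and Mcm2 overlap with control.

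The remaining 11 mitotic genes had log2 fold changes from -0.04 (Plk1) to 0.34 (Aurka), none of them called. Aurka and Aurkb, the Aurora kinases, had 0.34 ± 0.14 (adjusted p = 0.0791) and 0.16 ± 0.14 (0.386). Cdc20, which activates the anaphase-promoting complex, measured 8.28 to 10.2 CPM in control and 10.3 to 12.5 CPM in mutant libraries. Its adjusted p of 0.0505 (log2 fold change 0.33 ± 0.12) lay just outside the threshold. Aurka and Cdc20 passed without dcKO_hGFAP-Cre replicate 4 (adjusted p = 0.0211 and 0.0193). Ube2c, the ubiquitin-conjugating enzyme of that complex, had 0.14 ± 0.15 (adjusted p = 0.517). The 5 kinesins and spindle proteins Kif11, Kif23, Tpx2, Nusap1 and Prc1 had 0.03 to 0.19 on the log2 scale. The checkpoint kinase Bub1b had 0.19 ± 0.11 (adjusted p = 0.215), and the mitotic kinase Plk1 -0.04 ± 0.16 (adjusted p = 0.859).

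Within each phase, levels spread over more than the differences between groups. Per kilobase of exon in control, Cdk4 was the highest of the 44 genes at 46.6 CPM per kb, followed by Ccnd2 at 22.4, Pcna at 14.4 and Rrm2 at 13.8. In the mutant cortex the same 4 genes stood at 54.7, 21.7, 17.4 and 12.6 CPM per kb. The highest of the mitotic genes in control were Top2a at 5.35, Cdc20 at 5 and Ccna2 at 4.43 CPM per kb, and the lowest was Ccnb1 at 0.934. In the mutant cortex Ccnb2 was the highest mitotic gene, at 6.99 CPM per kb against 4.27 in control, and Cdc20 followed at 6.30.

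The mutant libraries were not alike across the 44 genes. Replicate 3, the library with the high Gfap, was the highest mutant for 23 genes, and replicate 4 was the lowest for 22. The part of those astroglial transcripts in this was not tested. The median log2 deviation from the control mean over the 44 genes was 0.12, 0.19, 0.26 and 0.04 in dcKO_hGFAP-Cre replicates 1 to 4. Among controls, replicate 1 was the highest for 17 genes and replicate 4 the lowest for 19, with medians of 0.04, -0.04, 0.02 and -0.04 in replicates 1 to 4. Without dcKO_hGFAP-Cre replicate 4, 16 members were higher and 1 lower, and of all 16481 genes tested in that fit 3308 were higher and 3129 lower. Leaving out any other single library gave 8 to 10 higher and 1 to 3 lower, with 9 and 3 when mutant replicate 3 was left out. Over all genes these fits gave 2199 to 3198 higher and 2375 to 3273 lower. With the sequencing lane as a block, 12 members were higher and 3 lower, Cdk2 (adjusted p = 0.0453) and Ccnd3 (0.0388) being added. Of all 16525 genes tested, 3208 were then higher and 3242 lower.

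**Figure D5:**
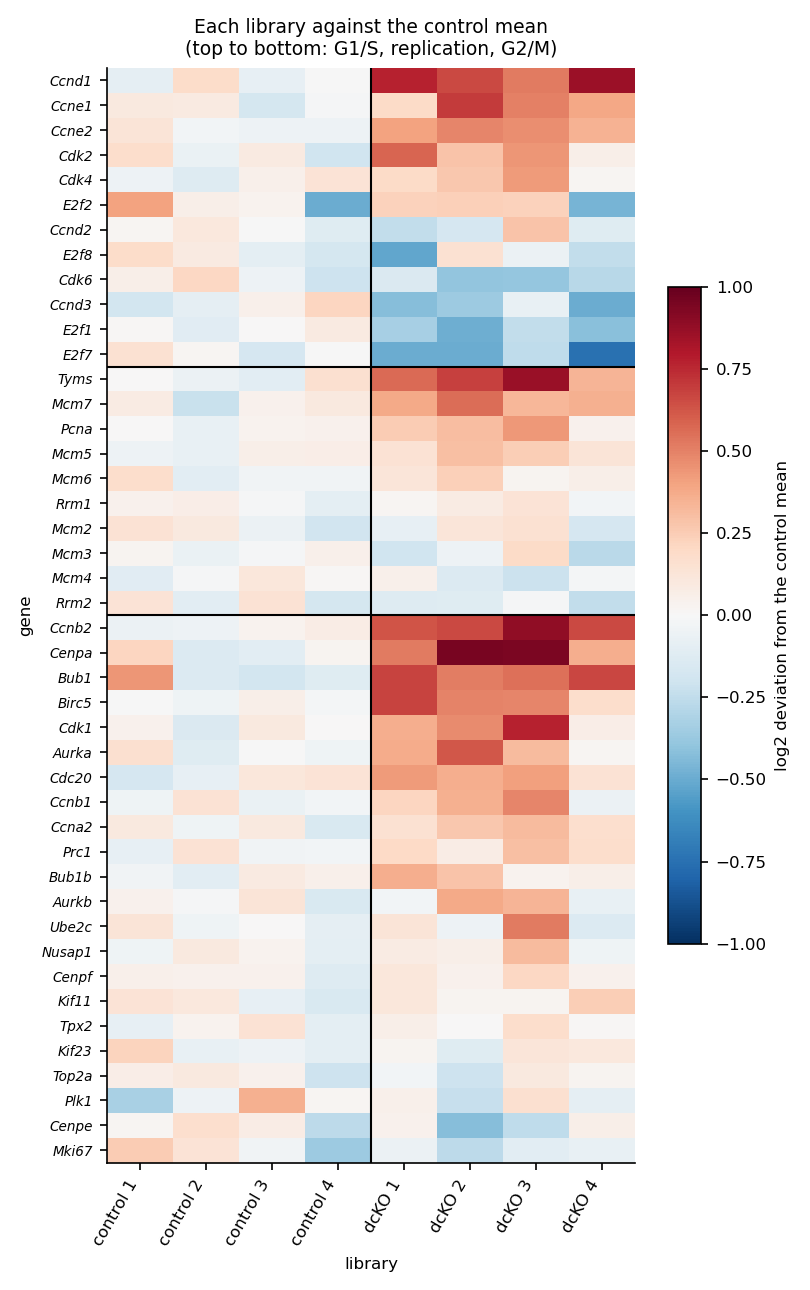
Log2 deviation of each library from the control mean (color, limited to ±1) for the 44 genes (rows, by phase) in 4 control and 4 dcKO_hGFAP-Cre libraries (columns; dcKO). The top rows of each phase are red in the mutant columns, the E2f1 and E2f7 rows are blue, and mutant replicate 4 is paler than replicate 3 in most mitotic rows.

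Further genes of the pathway, from lists of other replication and mitotic genes and of regulators, gave shares that can be read against the 18.6% of all genes that were higher and the 18.9% that were lower. Of 39 other replication genes, 13 were higher (33.3%) and 1 lower (2.56%), with a median log2 fold change of 0.22. Prim1, the primase subunit that starts each new DNA strand, rose by 0.62 ± 0.09 on the log2 scale (19.4 ± 1.27 to 29.8 ± 1.54 CPM, SD, adjusted p = 0.000312). Cdc7, the kinase that fires replication origins, rose by 0.67 ± 0.12 (adjusted p = 0.000864). Dut, which removes dUTP and supplies the substrate of Tyms, rose by 0.57 ± 0.10 (adjusted p = 0.00104). Clspn, which signals stalled forks to the checkpoint, was the gene that fell, with a log2 fold change of -0.51 ± 0.16 (adjusted p = 0.0248). It lost the call without control replicate 1, 2 or 3 or dcKO_hGFAP-Cre replicate 4, where the count of lower genes was 0. The next smallest p among the negative values of this list were those of Chaf1b (-0.34, adjusted p = 0.0717) and Rpa1 (-0.13, adjusted p = 0.385), neither called.

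Of 47 other mitotic genes, 8 were higher (17.0%, below the 18.6% of all genes) and 1 lower (2.13%), with a median of 0.19. Hmgb2, a chromatin protein of dividing cells, rose by 0.93 ± 0.15 on the log2 scale (4.79 ± 0.939 to 9.18 ± 0.252 CPM, adjusted p = 0.000641). Ect2, which directs cytokinesis, rose by 0.57 ± 0.12 (adjusted p = 0.00243), and Spc25, of the kinetochore, by 0.55 ± 0.13 (adjusted p = 0.00559). Cdc25b, a phosphatase that activates Cdk1, was the gene that fell, from 26.6 ± 3.69 to 17.6 ± 0.342 CPM (log2 fold change -0.59 ± 0.11, adjusted p = 0.00119). Ncapg2 and Anln had -0.23 and -0.28 and were not called (adjusted p = 0.11 and 0.13). The count of higher genes was 5 without control replicate 4 or without dcKO_hGFAP-Cre replicate 1.

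Of 19 cell cycle transcription factors and brakes tested, 4 were higher (21.1%) and 1 lower (5.26%), with a median of 0.01. Rbl1, which encodes the pocket protein p107, a repressor of E2F targets, rose by 0.75 ± 0.11 on the log2 scale (8.50 ± 0.674 to 14.3 ± 0.919 CPM, adjusted p = 0.000317). Tfdp2, a dimer partner of E2F proteins, rose by 0.64 ± 0.12 (adjusted p = 0.00118). E2f5, a repressive E2F, rose by 0.48 ± 0.11 (adjusted p = 0.00609), and Cdkn1b, the CDK inhibitor p27, by 0.24 ± 0.07 (adjusted p = 0.0238). E2f3, an activating E2F, was the gene that fell, with -0.31 ± 0.08 (adjusted p = 0.0118). E2f4 and Lin54 had -0.23 and -0.18 and were not called (adjusted p = 0.0511 and 0.183). Cdkn2a did not pass the filter on low counts.

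Markers of several cell types that divide at this age also differed between the groups. Of all genes tested, 37.5% were called, 18.6% higher and 18.9% lower. The called share was 76.9% of microglia, 88.9% of oligodendrocyte precursor, 57.1% of intermediate progenitor and 91.7% of ventral markers. Radial glia and astroglia, at 40%, lay near the share of all genes. Endothelial markers had 45.5% called, all of them lower. Of 13 microglia markers 10 were higher and 0 lower, their summed level being 153 to 202 CPM in control and 290 to 355 CPM in mutant libraries. Of 9 markers of oligodendrocyte precursors 0 were higher and 8 lower (475 to 507 against 270 to 351 CPM). Of 7 tested markers of intermediate progenitors 4 were higher (179 to 225 against 224 to 251 CPM), and the eighth, Neurog1, was at 0 in at least 1 library and not tested. Of 15 markers of radial glia and astroglia 4 were higher and 2 lower (2978 to 3199 against 2330 to 3939 CPM). Ventral progenitor and interneuron markers were higher in 10 and lower in 1 of 12 (474 to 508 against 691 to 782 CPM), and endothelial markers lower in 5 of 11 (413 to 480 against 286 to 424 CPM). Cortical projection neuron markers, which define the labelled tissue, were present in every library and lower in 8 of 10 (2083 to 2237 against 1159 to 1319 CPM). Striatal projection neuron markers were higher in 7 of 12 (338 to 451 against 494 to 999 CPM). No marker of erythroid cells (6 tested) or meninges (8 tested) was called by edgeR. The part of these cell types in the cell cycle transcripts was not tested.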

How the data were processed

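RNA of 4 dcKO_hGFAP-Cre and 4 control P3 cortices was sequenced from TruSeq RNA libraries. The authors deposited raw counts per Ensembl gene, made with featureCounts on mm10; the aligner, annotation, strand setting and handling of shared reads are not given in the sources used here. Identifiers were matched to symbols and exons in GENCODE (GRCm38). Of the 44 genes, 17 have exons that overlap another annotated gene.

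The main test was quasi-likelihood testing in edgeR 4.0.16 (R 4.3.3), with TMM scaling, robust dispersions, the default filter (minimum count 10) and no block. Benjamini-Hochberg adjustment ran over 16525 genes, and an adjusted p under 0.05 was called. A standard error was the log2 fold change divided by the root of F. Levels are TMM-scaled CPM, and those compared between genes are per kb of merged exons. Alternatives were DESeq2 (version 1.42.0), limma-voom (limma version 3.58.1), other scalings and filters, blocks, and replicates left out. The steps were tested on simulated data, where most but not all changed genes were recovered and false calls ran above the nominal share; the recovery required was lowered after the first limit was narrowly missed.

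The members, lists and rules were chosen with earlier results of these data known. Named with all library values were the called genes of smallest p in each phase (at most 4), the D- and E-type cyclins, Mki67, Top2a, Pcna, Ccnb1, Cdk1 and Mcm2. In the other cell cycle lists, the genes with the 3 lowest p in each direction were named with their fold changes. Dlx6os1 matched more than 1 identifier and was left out of its marker list. At these depths 3 counts, the limit that a count of 0 allows, are 0.0934 to 0.142 CPM. Replicates differed by more than counting noise, so each was 1 sample.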

Additional observations from a re-analysis of the deposited data

Results flagged for a closer look

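In groups of 4 libraries, the gap of the highest or lowest value to its neighbour was set against the range of the group and flagged above Dixon's 95% critical value. Of 88 groups (44 genes in control and in mutant libraries) 6 passed, and chance alone gives about 4.4. Ccne2 was flagged for control replicate 1, the highest control (gap 0.879 of the range), and Bub1 (0.916) and Kif23 (0.852) for the same library. Cenpf was flagged for control replicate 4, the lowest control (0.931). Ccnb2 was flagged for dcKO_hGFAP-Cre replicate 3, the highest mutant (0.875), and E2f2 for dcKO_hGFAP-Cre replicate 4, the lowest mutant (0.993). The calls of Ccne2, Bub1 and Ccnb2 held with each of these libraries left out, and Kif23, Cenpf and E2f2 were not called with or without them.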

How the results depend on the processing

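All 13 called members kept their sign under 8 other tests, scalings, filters and a lane block (104 of 104 values) and with each replicate left out (104 of 104). Of the 13, 10 were called in every one of the first 8 (not E2f1, E2f7 and Pcna) and 8 with each replicate left out (Ccnd1, Ccne2, E2f1, Mcm7, Tyms, Ccnb2, Bub1 and Cenpa). DESeq2 gave 4 lower members, all in the G1/S group (Ccnd3 and Cdk6 added), 2 lower other replication genes and 2 lower transcription factors and brakes, the last also with DESeq2 size factors. Library totals gave 19 higher and 0 lower members (5 and 0 in G1/S, 10 higher in G2/M), with medians of 0.24 over the members, 0.20 in replication and 0.30 in G2/M. For the other lists they gave 20 higher and 0 lower replication genes (median 0.34), 16 higher mitotic genes (0.32), and 0 lower transcription factors and brakes (0.13). That median was 0.075 with no filter. An adjusted p under 0.01 gave 1611 higher and 1938 lower genes in all, 5 higher and 0 lower members (1 and 0 in G1/S, 2 higher in G2/M), 8 higher and 0 lower other replication genes, 3 higher other mitotic genes and 0 lower factors and brakes. Without the members whose exons overlap another gene, 1 was lower, and G1/S had 1 higher and 1 lower. Without dcKO_hGFAP-Cre replicates 1 and 2, chosen after seeing the data, 1388 genes were higher and 1581 lower, with 4 higher and 0 lower members (1 and 0 in G1/S, 1 higher in replication, 2 higher in G2/M), 7 higher and 0 lower other replication genes, 2 higher other mitotic genes, and 2 higher and 0 lower factors and brakes (median 0.10). With single replicates left out, members lower ran from 1 to 3, all in G1/S, G1/S higher from 2 to 5, the members' median from 0.094 to 0.21, other replication genes lower from 0 to 2, other mitotic genes higher from 5 to 12, and factors and brakes lower from 1 to 2 with medians from -0.030 to 0.082. The cause was not tested.

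The replicate number as a block gave 11 higher and 2 lower members and kept 12 of the 13 calls, losing Pcna (log2 fold change 0.26, adjusted p = 0.0686) and adding Cdk2 (0.34, 0.0485). Same-numbered libraries deviated from their group means with correlations of 0.17, -0.07, 0.21 and -0.02, and in 1 of 4 cases a library correlated best with its own number, so the numbers, which also follow the sequencing lanes, were not taken to pair the samples. The lane as a block gave 12 higher and 3 lower members. Over all genes there were 2932 higher and 2982 lower with the replicate block, and 3208 and 3242 with the lane block. All members had 74 counts or more in every library. Some with few counts had wide SEs, 0.22 for E2f2 (80 to 135 counts) and 0.18 for E2f8 (74 to 128). Rrm1, with 1173 to 1793 counts, had 0.08. The part of counting noise in these SEs was not tested.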
